A study of Homo sapiens with 40 samples.

Results

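Interferon-stimulated genes are the genes that cells switch on when type I, II or III interferon binds its receptor. A set of 38 of them was described here, chosen as a list of gene symbols matched to the Ensembl gene IDs of the count table, out of 62263 genes in the table. All 38 were found, and 34 passed the filter on low counts that left 16735 genes for testing. The other 4 were IFI44, IFI44L, RSAD2 and CMPK2. The samples were cultures of BEAS-2B, a line of immortalised epithelial cells from human bronchus. Per the growth protocol, they carried a constitutive short hairpin RNA that was either a control or directed against IGF2BP3, an RNA-binding protein. The sample titles name siRNA (siC, siIGF2BP3) instead, and the wording of the protocol is used here. Cells were grown in 10% serum, kept overnight in 2% serum, and either left unstimulated or given the cytokine IL-13 at 100 ng/ml, with harvest after 24 h. RNA was taken from whole lysate (input) and from polysomes, the mRNAs bound by several ribosomes (the Frac-seq design), and poly(A)-selected libraries were made. The 40 libraries fell into 8 groups of 5: unstimulated control, unstimulated knockdown, IL-13 control and IL-13 knockdown cells, each as input and as polysome RNA. No group received interferon. All groups shared the cell line, the hairpin format and the serum step, and each hairpin was represented by 1 line, so the action of the hairpin and other ways in which these lines may differ cannot be told apart.

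Type I and type III interferons act through paired receptor chains and the kinases JAK1 and TYK2, which phosphorylate transcription factors such as STAT2. STAT2 and IRF9 take part in a complex that binds the interferon-stimulated response element (ISRE) in the promoters of its target genes, and the gamma-activated site (GAS) is another element found at interferon-responsive promoters. The induced proteins sense viral RNA, block steps of viral replication, attach the ubiquitin-like protein ISG15 to other proteins, and feed back on the receptor. Many of the genes keep a low level without added interferon. IL-13 signals through STAT6 and is an inducer of allergic responses in airway epithelium.

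The members were picked by name as genes known to respond to interferon. The share of them with an interferon element is therefore not independent of that choice. Promoter windows from 250 bases before to 50 bases after each gene start were taken from the RefSeq tables of GRCh38.p14, which held a window for 31 of the 38 members. The core of the ISRE (GAAA, any 2 bases, GAAA) read on either strand occurred in the windows of 21 of these 31 members (67.7%) and of 1195 of all 27305 genes in the table (4.38%). The core of the GAS, TTCNNNGAA, which reads the same on both strands, occurred for 9 of the 31 members (29.0%) and for 9.38% of all genes. Members without an ISRE core in the window were CMPK2, HERC6, IFI35, IRF1, IRF9, OAS1, SAMD9L, STAT2, UBE2L6 and XAF1. A match is a string of letters and not a measured binding site. IFIT2, IRF7, MX2, OAS2, OASL, TRIM22 and USP18 had no window.
The stretches around the ISRE core nearest the start are shown for the 5 tested members of highest mean CPM that had one upstream, because these are among the members with measurable RNA in every library. Each is printed 5′ to 3′ on the strand of the gene, and capitals mark bases that belong to a core match. Capitals at the left end of the IFI6 stretch are the end of a match that begins further upstream.
IFI6: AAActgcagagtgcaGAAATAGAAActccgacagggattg
ISG15: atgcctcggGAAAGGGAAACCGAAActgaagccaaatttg
OAS3: cggagagccgggcggGAAAACGAAAcc
EPSTI1: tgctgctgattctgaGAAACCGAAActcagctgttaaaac
BST2: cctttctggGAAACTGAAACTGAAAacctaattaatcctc
The stretch of IFI6 lies at chr1:27672261-27672300 (minus strand) in GRCh38.p14, with the core 84 bases before the start. ISG15 is shown from chr1:1013375-1013414 (plus strand), with overlapping cores of which the nearest lies 98 bases before the start. OAS3 is shown from chr12:112938447-112938473 (plus strand), with the core 3 bases before the start. EPSTI1 is shown from chr13:42992267-42992306 (minus strand), with the core 41 bases before the start. BST2 is shown from chr19:17405730-17405769 (minus strand), with overlapping cores of which the nearest lies 115 bases before the start.

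Depth and labels were checked over the whole series. Input libraries held 14044352 to 40441061 estimated counts and polysome libraries 1816848 to 34082191, with 3 polysome libraries under 5000000 counts, all from knockdown cells. IGF2BP3, the targeted gene, averaged 35.2 CPM, counts scaled to TMM library size (SD 11.3, n = 5) in unstimulated control input against 24.9 CPM (SD 3.02, n = 5) in the knockdown line, a difference that was not called (log2 fold change -0.50, adjusted p = 1). The gene was likewise not called in any other comparison of the lines, in either fraction, by treatment or on average. Knockdown is therefore used here as the name of the line. With IL-13, the response genes CISH and CCL26 were called in each setting: CISH rose by 3.90 to 4.55 and CCL26 by 4.09 to 7.01 on the log2 scale in the 4 settings of line and fraction. Keratin 8 (722 TPM) and vimentin (1259 TPM) were high in unstimulated control input, whereas the epithelial junction genes CDH1 and EPCAM stood at 0.455 and 0.579 TPM. Of 8 epithelial markers listed, 6 reached 1 TPM in a group mean, and the list summed to 1315 to 1664 TPM in unstimulated control input. Of 7 fibroblast markers, 5 did so, and that list summed to 1236 to 1792 TPM there. Of the leukocyte and plasmacytoid dendritic cell markers, MS4A1, IL3RA and LILRA4 were at 0 in every group and PTPRC reached at most 0.0395 TPM in a library. Of these lists, 2 of 8 leukocyte markers (CD14 and CD68) and 1 of 4 plasmacytoid markers (TCF4) reached 1 TPM in a group mean, and the leukocyte markers summed to 15.4 to 41.9 TPM in unstimulated control input and to at most 55.2 TPM in any library. The labels did not say whether replicates came from separate cultures, so p-values measure the spread between these libraries, which may be technical. In bulk RNA, fewer cells of a type and less RNA per cell cannot be told apart.

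Most members were expressed at a low to moderate level in cells that had received no interferon. Levels between genes were compared in TPM, the deposited unit that is scaled for transcript length. ISG15, the ubiquitin-like modifier, was highest in unstimulated control input at 153.9 TPM ± 29.5 (SD, n = 5), with libraries from 125.5 to 196 TPM. UBE2L6, the conjugating enzyme that hands ISG15 on, stood at 133 TPM ± 15.4 (SD, n = 5). IFI6, a mitochondrial and endoplasmic reticulum protein, stood at 130.4 TPM ± 17.1 (SD, n = 5). The libraries of these 3 genes overlapped, so their order was not settled. IRF1, a transcription factor that activates many of the same promoters, followed at 68.5 TPM ± 2.43 (SD, n = 5), below every library of IFI6. IFI35, a partner of the protein NMI, came next at 62.0 TPM ± 10.3 (SD, n = 5), and its libraries overlapped those of IRF1. A gap without overlap then separated IFI35 from BST2 (tetherin, which holds budding virus at the cell surface) at 25.4 TPM ± 4.83 (SD, n = 5). From BST2 down to SAMD9L, the lowest tested member, each gene overlapped the next in order.

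In all, 14 members measured 10 TPM or more, 16 lay between 1 and 10 TPM and 4 lay under 1 TPM. The median of the 34 members was 8.42 TPM, against 5.62 TPM over all genes tested, and 18 of the 34 lay above the latter. The members at 10 TPM or more included the signalling genes STAT2 (19.7 TPM), IRF9 (19.4 TPM) and IRF7 (18.1 TPM). RNA sensors spread widely, from OAS3, a synthase of the second messenger that activates RNase L, at 24.8 TPM to OASL at 1.02 TPM. Between them stood EIF2AK2, the double-stranded RNA kinase PKR, at 5.04 TPM, OAS1 at 2.40 TPM, IFIH1, the cytoplasmic RNA sensor MDA5, at 1.77 TPM, and OAS2 at 1.28 TPM. The 4 IFIT genes, whose proteins bind viral RNA, ran from IFIT3 at 9.00 TPM and IFIT5 at 4.77 TPM to IFIT1 at 1.89 TPM and IFIT2 at 1.79 TPM. Members under 1 TPM were the ISG15 ligase HERC5 (0.756 TPM), XAF1 (0.749 TPM), MX2 (0.590 TPM) and SAMD9L (0.503 TPM). The remaining members lay between IFI27 at 15.7 TPM and SAMD9 at 1.32 TPM, with EPSTI1, TRIM22, DTX3L, MX1, ISG20, PARP9, USP18, PARP14 and HERC6 in between. The Spearman correlation of the 34 levels between this group and each other input group was at least 0.983, over 34 genes that share the libraries of a group.

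Some classical members were close to absent. IFI44, IFI44L, RSAD2 (viperin, which makes a chain-terminating nucleotide) and CMPK2 summed to 28, 23, 12 and 18 estimated counts over all 40 libraries. RSAD2 and CMPK2 were at 0 in 35 libraries each, IFI44 in 34 and IFI44L in 31. These are genes that interferon raises strongly in many cell types, and they stood beside ISG15 and IFI6 at 153.9 and 130.4 TPM in unstimulated control input. The heat map of CPM by library shows this split as dark rows among bright ones.

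**Figure D1:**
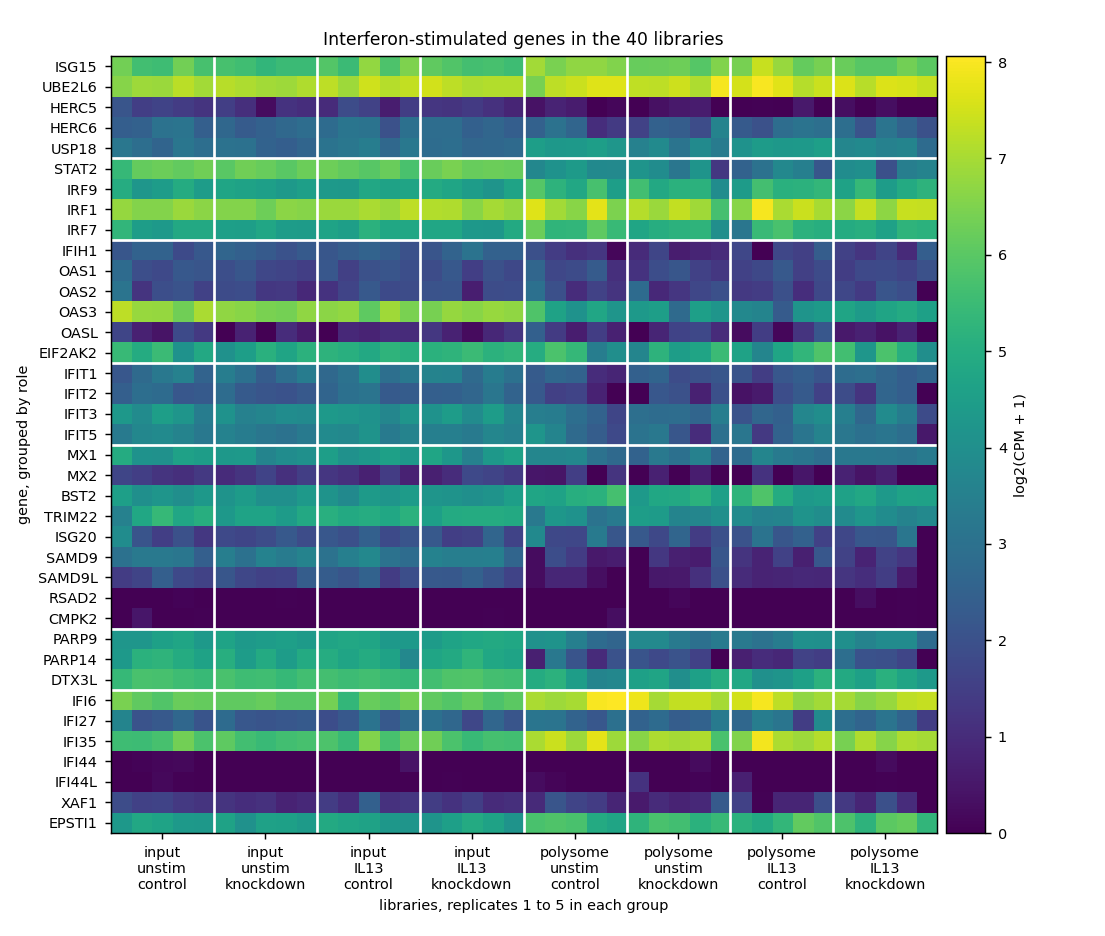
Level of each of the 38 interferon-stimulated genes (rows, grouped by role) in each of the 40 libraries (columns, 5 per group) as log2(CPM + 1), with brighter colours for higher levels. IFI44, IFI44L, RSAD2 and CMPK2 are dark throughout, while STAT2, OAS3 and PARP14 are darker and IFI6, IFI35 and EPSTI1 brighter in the polysome columns than in the input columns.

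A list of 86 further pathway genes set the members in context. Of its 9 interferon genes, IFNA1, IFNA2, IFNK, IFNL2 and IFNG were at 0 in all 40 libraries, which with a floor of 3 counts per library shows only that their RNA was not detectable at this depth. IFNB1 and IFNL3 had 1 count each, IFNL1 had 4 and IFNE had 54 over the 40 libraries. Receptor chains and kinases were measured in unstimulated control input: IFNAR1 at 6.51 TPM, IFNAR2 at 14.4 TPM, JAK1 at 26.5 TPM and TYK2 at 35.2 TPM. The RNA sensor gene RIGI, itself interferon-induced, stood at 0.249 TPM, and the chemokine gene CXCL10 at 0.188 TPM.

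No member was called to change with IL-13 in either line or fraction, nor for the average over lines, at an adjusted p under 0.05 with edgeR's quasi-likelihood test and Benjamini-Hochberg adjustment over all genes tested. Over all genes the test called 0.0777% in control input, 0.0837% in knockdown input, 0.149% on average in input, 0.125% in control polysome, 0.0956% in knockdown polysome and 0.209% on average in polysome. At an unadjusted p under 0.05 input gave 0, 0 and 1 members, polysome RNA 4, 0 and 2, in the same order, and DESeq2 also called 0 in each. Among all genes, 2.04%, 1.03% and 1.96% reached that level in input libraries, and 5.14%, 3.21% and 5.28% in polysome libraries. The median log2 fold change of the 34 members was 0.03 in control input and 0.19 in knockdown input (all genes, 0 in both), and 32 of 34 lay above 0 in the latter. The members share the same libraries, so their signs are not independent of each other. In polysome RNA the medians were -0.03 and 0.16, against 0 and -0.02 for all genes.

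IRF1 had the smallest p in input RNA averaged over lines. IRF1 in unstimulated input measured 108, 94.2, 93.1, 114 and 101 CPM in control and 93.8, 92.8, 76.7, 100.0 and 96.2 CPM in knockdown libraries. After IL-13, IRF1 measured 115, 113, 129, 114 and 152 CPM in control and 138, 136, 97.8, 126 and 109 CPM in knockdown libraries. Most IL-13 libraries lay above the unstimulated ones, with overlap in both lines. The average log2 fold change was 0.34 ± 0.17 (SE), 95% interval 0.01 to 0.68, adjusted p = 1. UBE2L6 (0.26), ISG15 (0.23) and TRIM22 (0.23) followed on the same log2 scale, each with an adjusted p of 1. Within the lines, the others of smallest p in control input were OASL (-0.97, a gene at 0 in 5 of the 40 libraries) and USP18 (0.20). In knockdown input they were EIF2AK2 (0.52), ISG15 (0.27) and MX1 (0.30). Single libraries moved several of these: the averages of ISG15 and TRIM22 were 0.14 without IL-13 control replicate 3 and 0.12 without unstimulated control replicate 1. USP18 in control cells was 0.10 without unstimulated replicate 3, 0.11 without IL-13 replicate 3 and 0.30 without IL-13 replicate 4. MX1 in knockdown cells was 0.18 without IL-13 replicate 1 and 0.45 without IL-13 replicate 3.

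In polysome RNA of control cells the members of smallest p lay lower with IL-13. OAS3 measured 56.3, 23.9, 16.2, 26.2 and 17.3 CPM without and 12.6, 11.4, 4.01, 17.2 and 19.9 CPM with IL-13, a log2 fold change of -1.11 ± 0.31 (SE), adjusted p = 0.270. The groups overlapped, and the highest unstimulated library was replicate 1. Without both libraries of unstimulated control replicate 1 the OAS3 value was -0.69 (adjusted p = 0.955), and with an offset for the deposited transcript lengths it was -0.41 (adjusted p = 1). STAT2, a subunit of the ISRE-binding complex, had 12.3, 16.2, 20.0, 13.0 and 12.9 CPM without and 4.77, 7.18, 12.5, 10.1 and 3.48 CPM with IL-13 (log2 fold change -0.94 ± 0.34 (SE), adjusted p = 0.568). PARP14 (-1.35) and IRF7 (-0.59) had adjusted p-values of 0.588 and 0.941. Without unstimulated control polysome replicate 2 the PARP14 value was -0.66, and without IL-13 control polysome replicate 1 the IRF7 value was -0.34. The highest value was that of SAMD9L (0.97, adjusted p = 1), from means of 0.418 CPM without and 0.855 CPM with IL-13. Among members with a mean of at least 1 CPM, those of smallest p in knockdown polysome RNA were OAS3 (0.50), OASL (-1.43), IFIT1 (0.58) and IFI6 (-0.32), all with an adjusted p of 1. HERC5, below that level, had -1.51. Averaged over lines they were STAT2 (-0.56, adjusted p = 0.794), then IFIH1 (0.65), SAMD9L (0.63) and IFI6 (-0.23). The knockdown OAS3 value was 0.27 without unstimulated replicate 3 and that of IFI6 was -0.15 without unstimulated replicate 1. The average of IFI6 lay between -0.15 and -0.14 without unstimulated control replicate 4 or 5 or unstimulated knockdown replicate 1.

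The response to IL-13 was also compared between the lines as an interaction term. No member was called in input (0% of all genes called) or in polysome RNA (also 0%). At an unadjusted p below 0.05 there were 0 members in input (0.914% of all genes) and 2 in polysome RNA (3.36%), and DESeq2 called 0 in both. OAS3 had the smallest p in polysome RNA, where its IL-13 effect was -1.11 in control and 0.50 in knockdown cells. The difference was 1.61 ± 0.44 (SE), adjusted p = 0.583, and 0.72 with the offset for transcript length. PARP14 (1.80), IRF7 (0.69) and STAT2 (0.78) came next, and in input OASL (1.99, on few counts), MX1 (0.43), OAS2 (0.88) and OAS1 (0.43), all with an adjusted p of 1. Without unstimulated control input replicate 1 the input values were 0.28 for MX1, 0.35 for OAS2 and 0.18 for OAS1. In polysome RNA, PARP14 was 1.11 without unstimulated control replicate 2 and IRF7 0.44 without IL-13 control replicate 1. Of the 74 pathway genes tested, SOCS1, the inhibitor of JAK kinases that IL-13 and interferon both induce, rose with IL-13 in each setting, by 2.69 and 2.90 in input and 3.40 and 2.77 in polysome RNA of control and knockdown cells. No other gene of the 74 was called for IL-13 in any of the 4 settings.

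Between the lines, 1 member passed the test: USP18, in polysome RNA averaged over treatments. USP18 removes ISG15 from proteins and also blocks signalling at the type I interferon receptor. In unstimulated polysome RNA, USP18 (ENSG00000184979.11) measured 21.8, 18.6, 19.6, 21.8 and 17.9 CPM in control and 10.7, 13.5, 7.65, 13.4 and 9.29 CPM in knockdown libraries. With IL-13, USP18 measured 16.2, 20.4, 18.8, 19.7 and 22.4 CPM in control and 12.0, 13.3, 10.6, 11.4 and 6.07 CPM in knockdown libraries. The lines did not overlap: the 10 control libraries ran from 16.3 to 22.4 CPM and the 10 knockdown libraries from 6.07 to 13.5 CPM. USP18 was lower in knockdown polysome RNA by a log2 fold change of -0.85 ± 0.14 (SE), 95% interval -1.13 to -0.57, adjusted p = 0.000692. The test called 1.38% of all genes in this comparison, and 1 of 34 members (2.94%) is close to that share.

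The treatments taken alone gave nearly the same sizes, -0.86 ± 0.20 (SE) unstimulated and -0.85 ± 0.20 (SE) with IL-13, which edgeR's test gave adjusted p-values of 0.101 and 0.0925. DESeq2 called USP18 in both, with adjusted p-values of 0.00486 and 0.00644. In input RNA, USP18 measured 8.25, 6.58, 5.10, 8.00 and 6.52 CPM in control and 7.30, 7.08, 4.79, 4.30 and 5.15 CPM in knockdown libraries without IL-13. The input libraries with IL-13 held 7.49, 8.25, 9.75, 5.57 and 8.41 CPM of USP18 in control and 6.18, 6.47, 5.31, 5.52 and 5.92 CPM in knockdown cells. The lines overlapped in input, where the average difference was -0.35 ± 0.14 (SE), adjusted p = 0.607. The difference between fractions was itself not called, at -0.59 ± 0.28 (SE) unstimulated and -0.42 ± 0.28 (SE) with IL-13 (adjusted p = 1.0 in both). Low depth fell on the same line: without the 3 shallow knockdown libraries the average was -0.71, adjusted p = 0.00991. Summed TPM of 4 endothelial markers, of which CDH5 alone reached 1 TPM in a group mean, also moved with the line. In unstimulated polysome libraries the sums overlapped, at 0.0424 to 1.12 in control and 0.872 to 2.80 in knockdown cells. They did not overlap in IL-13 polysome (0 to 0.198 and 0.527 to 2.275), unstimulated input (0.164 to 0.631 and 2.025 to 4.477) or IL-13 input (0.0478 to 0.351 and 0.955 to 2.578). The part of these markers in the USP18 difference was not tested. USP41, a near copy of USP18, held 35 counts over all 40 libraries and could take some of its reads.

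**Figure D2:**
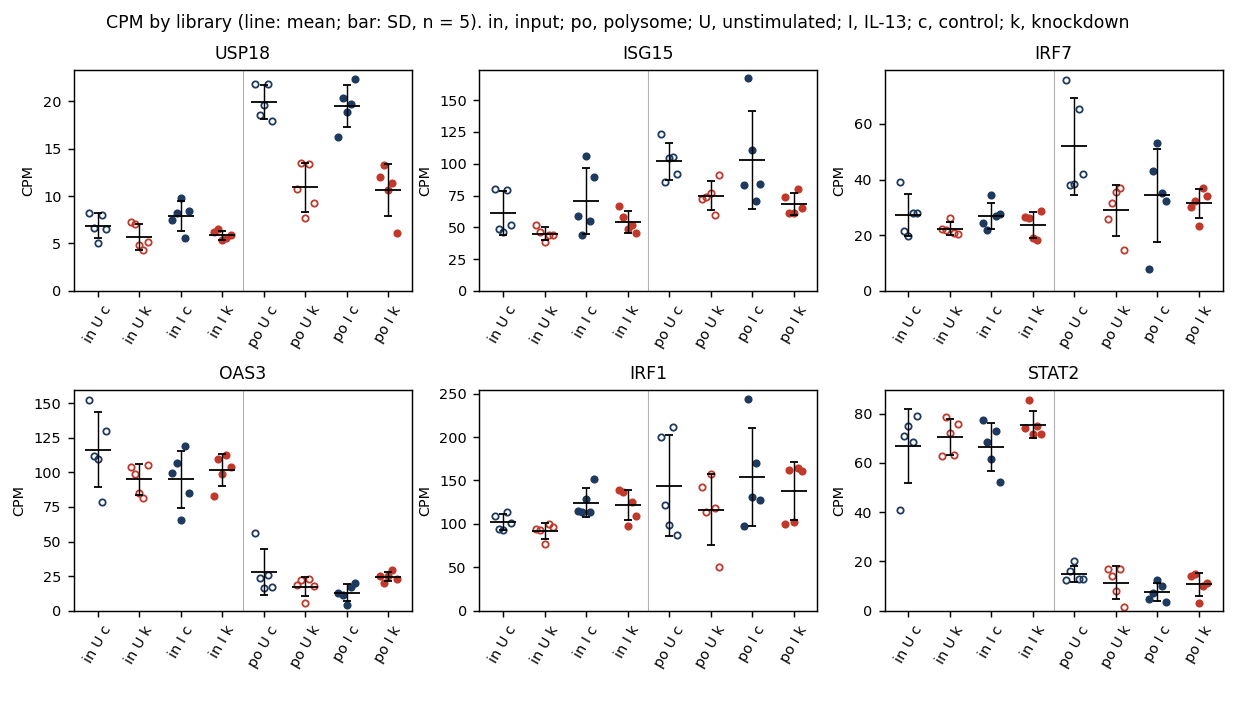
CPM in each library for USP18, ISG15, IRF7, OAS3, IRF1 and STAT2 in the 8 groups (points are libraries, open for unstimulated and filled for IL-13, blue for control and red for knockdown; the line is the mean and the bar the SD, n = 5). USP18 in polysome RNA lies between 16.3 and 22.4 CPM in control and between 6.07 and 13.5 CPM in knockdown libraries, while STAT2 and OAS3 fall from input to polysome in every condition.

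ISG15 itself lay lower in the knockdown line without passing the test. In unstimulated polysome RNA, ISG15 measured 123, 85.6, 104, 105 and 91.8 CPM in control and 72.3, 73.6, 76.6, 59.9 and 91.4 CPM in knockdown libraries. With IL-13 these were 83.3, 167, 111, 70.5 and 83.8 CPM and 74.0, 61.0, 61.4, 80.0 and 65 CPM. The ranges overlapped in both treatments, and the highest value was that of IL-13 control replicate 2. The average difference of ISG15 was -0.52 ± 0.15 (SE), adjusted p = 0.0657 in polysome and -0.41 ± 0.15 (SE), adjusted p = 0.436 in input RNA. It passed with DESeq2 in polysome RNA (-0.50, adjusted p = 0.0468) and with edgeR when IL-13 control polysome replicate 4 was left out (-0.58, adjusted p = 0.0323). IRF7, the factor that amplifies interferon production, differed by -0.48 ± 0.20 (SE), adjusted p = 0.236, on average in polysome RNA. Without IL-13 control polysome replicate 1, the lowest of its group at 8.02 CPM, the IRF7 value was -0.60 with an adjusted p of 0.0460. BST2 differed by -0.41 ± 0.16 (SE), adjusted p = 0.194, and by -0.26 without IL-13 control polysome replicate 2.

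No member was called between the lines in input, where the test called 0.012% of all genes unstimulated, 0% with IL-13 and 0.406% on average. The members at an unadjusted p under 0.05 were 1, 1 and 2 of 34 (2.97%, 3% and 5.87% of all genes), and DESeq2 called 0. Besides ISG15 and USP18, the members of smallest p in unstimulated input were MX1 (-0.44), OASL (-1.67, on few counts) and OAS1 (-0.55). With IL-13 they were XAF1 (-0.52) and DTX3L (0.19), and each of these values had an adjusted p of 1. Averaged over treatments, XAF1 (-0.68) and OAS1 (-0.34) followed. Without IL-13 control replicate 3 the XAF1 value turned to 0.044 with IL-13 and was -0.41 on average. Without unstimulated control replicate 1, MX1 was -0.29 and OAS1 -0.30 unstimulated, and OAS1 -0.21 on average. In polysome RNA by treatment the edgeR count was also 0, with 0.0299% of all genes called unstimulated and 0.0896% with IL-13. There the members at an unadjusted p under 0.05 were 4 and 6, with 5 for the average (7.42%, 9.92% and 14.7% of all genes). DESeq2 called USP18 alone in each treatment, and USP18 and ISG15 on average. The median of the members was -0.20 unstimulated in input and -0.29 in polysome RNA, with 26 of 34 below 0 in each, and 0 and -0.08 with IL-13, where 18 of 34 lay below 0 in each. Over all genes these medians lay between -0.01 and -0.04. The unstimulated knockdown input libraries, the group of lowest summed CPM of the members, enter both the input median of -0.20 and the IL-13 median of 0.19 in knockdown input. These medians are therefore not independent, and neither are the signs of members that share libraries.

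Groups that did not overlap were few. In unstimulated polysome RNA they were USP18 and IRF7, both lower in the knockdown line (2 members, 5.88%, against 0.305% of all genes that were lower without overlap). IRF7 had 75.9, 37.9, 38.4, 65.3 and 41.8 CPM in control and 25.9, 31.5, 35.4, 36.9 and 14.7 CPM in knockdown libraries (log2 fold change -0.82, adjusted p = 0.367). With IL-13 they were USP18, lower (1 member, against 1.11% of all genes), and OAS3, higher (1 member, against 0.55%). OAS3 had 12.6, 11.4, 4.01, 17.2 and 19.9 CPM in control and 25.2, 20.2, 25.4, 29.1 and 23.0 CPM in knockdown IL-13 libraries. Its log2 fold change was 0.93 (adjusted p = 0.269) with IL-13 and -0.68 (adjusted p = 0.607) without, and 0.20 with IL-13 under the offset for transcript length. The unstimulated OAS3 value was -0.27 without control replicate 1 and -0.45 without knockdown replicate 3. PARP14 with IL-13 differed by 1.35, adjusted p = 0.309, and by 0.89 without knockdown replicate 1. Of the 74 pathway genes, IFITM1, whose protein blocks viral entry, was called lower in knockdown polysome RNA on average (-0.56, adjusted p = 0.0220) and no other was. Unstimulated polysome libraries held 223 CPM of IFITM1 (SD 42.3, n = 5) in the control line against 150.6 CPM (SD 16.5, n = 5) in the knockdown line, and with IL-13 177 CPM (SD 52.0) against 121 CPM (SD 23.0).

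**Figure D3:**
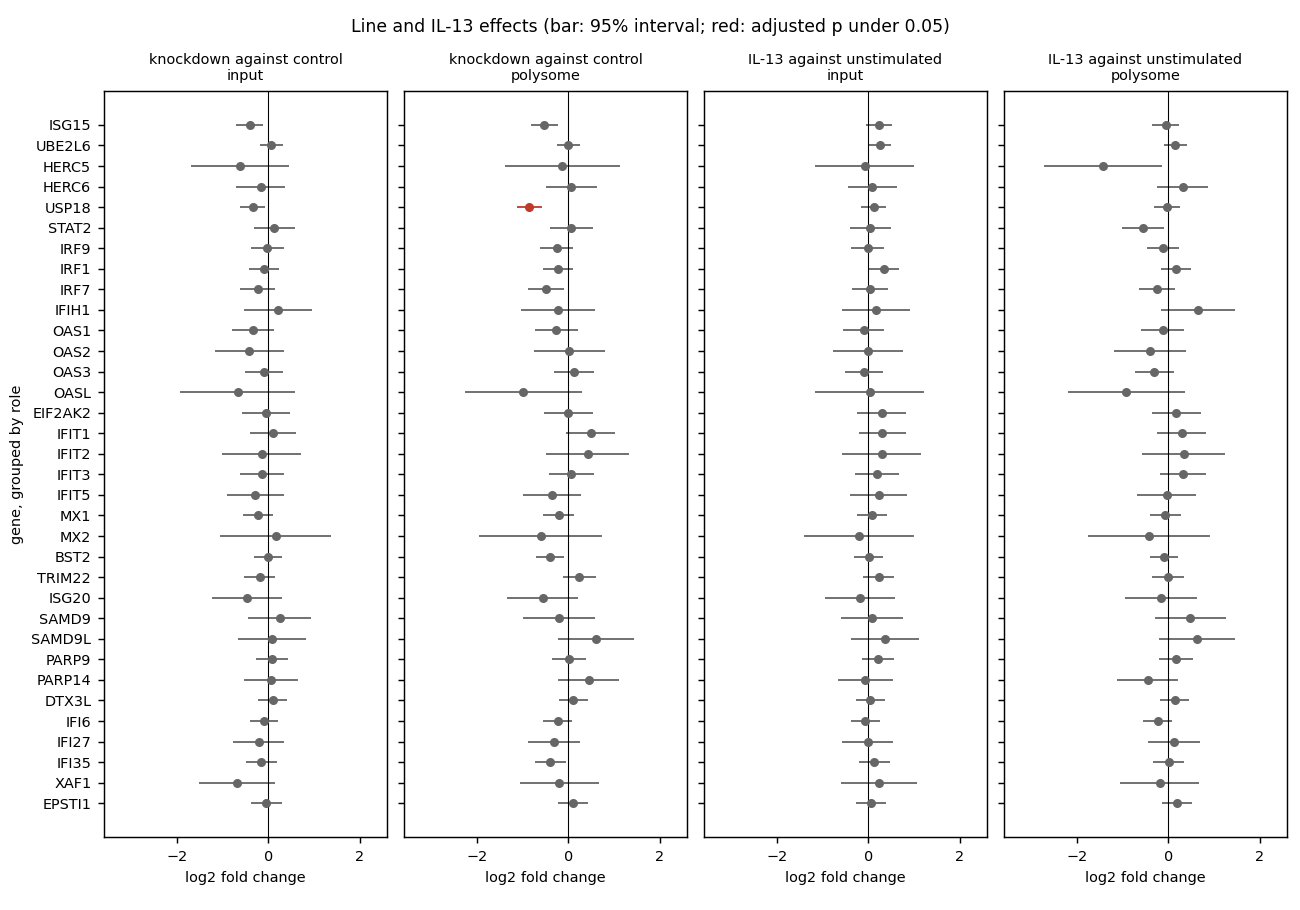
Log2 fold change of each tested member between the lines (left pair of panels, averaged over treatments) and with IL-13 (right pair, averaged over lines) in input and polysome RNA, with 95% intervals. USP18 in polysome RNA of the knockdown line, at -0.85, is the single red point, and the widest intervals belong to low genes such as HERC5, OASL and MX2.

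The largest differences of the members lay between the fractions. Averaged over the 4 conditions, 26 of 34 members (76.5%) differed between polysome and input RNA, 10 higher and 16 lower, against 65.1% of all genes, 26.2% higher and 38.9% lower. The comparison is relative within each library, so a gene called lower in polysome RNA held a smaller share of that library. In single conditions the members called were 21 (8 higher, 13 lower; 40.2% of all genes) in unstimulated control, 17 (6 and 11; 38.5%) in unstimulated knockdown, 19 (7 and 12; 39.3%) in IL-13 control and 15 (4 and 11; 39.3%) in IL-13 knockdown cells. Over all genes the shares called higher and lower were 17.4% and 22.8%, 16.4% and 22%, 16.7% and 22.6%, and 16% and 23.3%, in the same order. With the offset for transcript length, the unstimulated knockdown split was 8 higher and 7 lower. The median of the members was -0.22 on average, against -0.24 for all genes. No member was called in opposite directions in any pair of conditions: 9 were lower in all 4, 4 were higher in all 4, and 13 were called in none.

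By role, the lower members lay mostly in the IFIT family (4 of 4), the PARP and DTX3L group (3 of 3) and the antiviral effectors (5 of 7 tested, with 1 higher). The RNA sensors had 2 lower of 6, near the share of all genes. Over all genes 38.9% were called lower and 26.2% higher, and each role held only 3 to 7 tested members. The higher members were in signalling and transcription (3 of 4, with 1 lower), the ISG15 system (3 of 5, with 1 lower) and the remaining induced genes (3 of 5). The plot of polysome against input by gene shows the members in order.

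**Figure D4:**
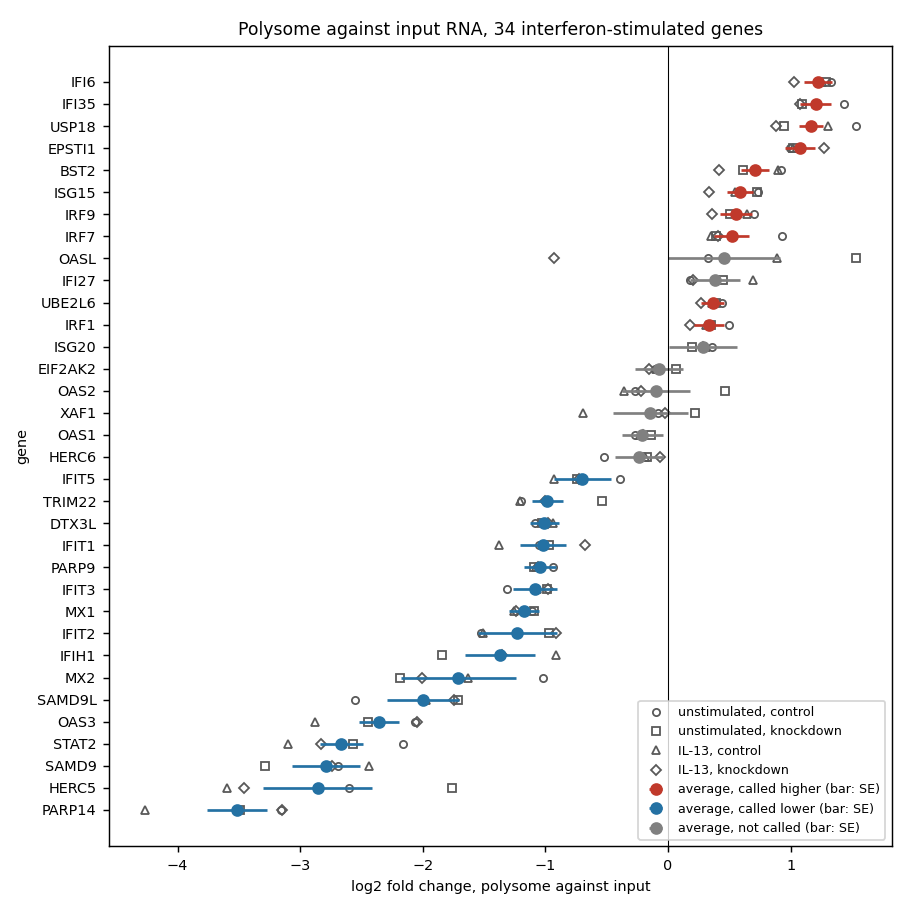
Log2 fold change of polysome against input RNA for the 34 tested members in each of 4 conditions (open symbols) and on average (filled circles with the SE; red higher, blue lower, grey not called). The averages run from PARP14 at -3.52 to IFI6 at 1.22, and the open symbols of a gene mostly lie on the same side of 0.

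STAT2 (ENSG00000170581.15), which takes part in the ISRE-binding complex with IRF9, fell from input to polysome RNA in each condition. STAT2 in unstimulated control cells measured 41.0, 71.0, 74.9, 68.3 and 79.2 CPM in input and 12.3, 16.2, 20.0, 13.0 and 12.9 CPM in polysome libraries. STAT2 in unstimulated knockdown cells measured 62.7, 78.7, 72.2, 63.3 and 75.8 CPM in input and 17.0, 14.0, 7.88, 17.0 and 1.47 CPM in polysome libraries. The lowest input library stood above the highest polysome library in both of these conditions, and the same held with IL-13. STAT2 in IL-13 control cells measured 77.5, 68.4, 61.8, 72.9 and 52.4 CPM in input and 4.77, 7.18, 12.5, 10.1 and 3.48 CPM in polysome libraries. STAT2 in IL-13 knockdown cells measured 74.2, 85.4, 71.6, 75.1 and 71.8 CPM in input and 14.0, 15.0, 2.95, 10.0 and 11.3 CPM in polysome libraries. In log2 terms the differences of STAT2 were -2.16, -2.57, -3.10 and -2.83 in the conditions in that order, and the average was -2.67 ± 0.18 (SE), adjusted p = 2.49e-16. STAT2 was the member of smallest p. The kinase JAK1 (-2.86), named after its value was seen, also fell, while IRF9 (0.55), IRF7 (0.52) and IRF1 (0.33) rose.

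OAS3 (ENSG00000111331.14), the longest of the oligoadenylate synthases, fell without overlap in any condition. OAS3 in unstimulated control cells measured 152, 112, 109, 78.7 and 129.8 CPM in input and 56.3, 23.9, 16.2, 26.2 and 17.3 CPM in polysome libraries. OAS3 in unstimulated knockdown cells measured 104, 98.7, 85.2, 81.2 and 105 CPM in input and 18.9, 22.1, 5.88, 22.6 and 17.6 CPM in polysome libraries. In polysome RNA the unstimulated control library of replicate 1 stood apart from its group, yet below every input library. OAS3 in IL-13 control cells measured 99.3, 107, 65.3, 119 and 84.9 CPM in input and 12.6, 11.4, 4.01, 17.2 and 19.9 CPM in polysome libraries. OAS3 in IL-13 knockdown cells measured 83.2, 109.5, 98.5, 113 and 104 CPM in input and 25.2, 20.2, 25.4, 29.1 and 23.0 CPM in polysome libraries. OAS3 had log2 fold changes of -2.06, -2.45, -2.88 and -2.04 in the conditions in that order, and the average was -2.36 ± 0.16 (SE), adjusted p = 7.49e-16. The other synthases OAS1 (-0.21), OAS2 (-0.10) and OASL (0.46) were not called.

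PARP14 (ENSG00000173193.15), a mono-ADP-ribosyl transferase, had the lowest average of the 34. PARP14 in unstimulated control cells measured 19.4, 34.2, 37.2, 29.9 and 23.9 CPM in input and 0.626, 8.27, 3.30, 0.992 and 3.12 CPM in polysome libraries. PARP14 in unstimulated knockdown cells measured 32.1, 21.1, 29.3, 21.1 and 29.6 CPM in input and 3.24, 2.47, 3.20, 1.97 and 0 CPM in polysome libraries. Every polysome library lay below the input libraries of its condition, and the shallow knockdown replicate 5 was at 0 with and without IL-13. PARP14 in IL-13 control cells measured 30.8, 25.1, 29.9, 24.1 and 12.7 CPM in input and 0.650, 1.01, 0.868, 2.00 and 1.74 CPM in polysome libraries. PARP14 in IL-13 knockdown cells measured 25.8, 28.7, 37.8, 26.8 and 24.8 CPM in input and 6.53, 3.05, 2.90, 2.22 and 0 CPM in polysome libraries. In log2 terms the differences of PARP14 were -3.16, -3.49, -4.27 and -3.15 in the conditions in that order, and the average was -3.52 ± 0.25 (SE), adjusted p = 1.63e-15. PARP9 and its partner, the ubiquitin ligase DTX3L, fell by 1.04 and 1.01, with input and polysome libraries apart in every condition.

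SAMD9 (ENSG00000205413.8), a restriction factor for poxviruses, also fell in every condition. SAMD9 in unstimulated control cells measured 7.07, 8.61, 8.60, 7.94 and 4.48 CPM in input and 0.209, 2.73, 1.68, 0.451 and 0.557 CPM in polysome libraries. SAMD9 in unstimulated knockdown cells measured 9.96, 7.12, 11.0, 9.24 and 11.3 CPM in input and 0, 1.46, 0.628, 0.516 and 3.42 CPM in polysome libraries. Polysome libraries of SAMD9 lay below all input libraries of their condition. SAMD9 in IL-13 control cells measured 7.14, 10.2, 12.5, 7.22 and 6.18 CPM in input and 1.30, 0.749, 1.94, 0.647 and 3.58 CPM in polysome libraries. SAMD9 in IL-13 knockdown cells measured 10.9, 10.0, 9.93, 10.2 and 5.14 CPM in input and 1.99, 0.752, 1.99, 1.42 and 0 CPM in polysome libraries. SAMD9 had log2 fold changes of -2.69, -3.29, -2.44 and -2.74 in the conditions in that order, and the average was -2.79 ± 0.28 (SE), adjusted p = 2.39e-11. Its neighbour and paralog SAMD9L fell by 2.00, and reads of the pair may be shared.

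MX1 (ENSG00000157601.15), a dynamin-like protein that traps viral nucleocapsids, fell to a smaller extent. MX1 in unstimulated control cells measured 29.9, 16.4, 15.9, 23.6 and 21.6 CPM in input and 12.1, 11.9, 12.6, 7.30 and 5.69 CPM in polysome libraries. MX1 in unstimulated knockdown cells measured 18.6, 19.4, 11.4, 14.1 and 15.6 CPM in input and 4.74, 8.53, 6.91, 10.7 and 4.89 CPM in polysome libraries. No library of one fraction reached into the other. MX1 in IL-13 control cells measured 22.1, 15.9, 18.4, 22.9 and 18.6 CPM in input and 6.07, 11.6, 8.81, 7.74 and 6.52 CPM in polysome libraries. MX1 in IL-13 knockdown cells measured 25.6, 18.3, 10.7, 18.9 and 23.6 CPM in input and 8.30, 8.27, 8.09, 7.53 and 9.10 CPM in polysome libraries. In log2 terms the differences of MX1 were -1.11, -1.10, -1.26 and -1.24 in the conditions in that order, and the average was -1.18 ± 0.12 (SE), adjusted p = 1.10e-10. The lower group also held MX2 (-1.71), which was called on average and in no single condition and was at 0 in 9 of the 40 libraries. TRIM22 fell by 0.99 on average, and IFIH1 by 1.37.

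USP18 rose from input to polysome RNA in every condition. USP18 in unstimulated control cells measured 8.25, 6.58, 5.10, 8.00 and 6.52 CPM in input and 21.8, 18.6, 19.6, 21.8 and 17.9 CPM in polysome libraries. USP18 in unstimulated knockdown cells measured 7.30, 7.08, 4.79, 4.30 and 5.15 CPM in input and 10.7, 13.5, 7.65, 13.4 and 9.29 CPM in polysome libraries. The fractions did not overlap in the unstimulated cells of either line. USP18 in IL-13 control cells measured 7.49, 8.25, 9.75, 5.57 and 8.41 CPM in input and 16.2, 20.4, 18.8, 19.7 and 22.4 CPM in polysome libraries. USP18 in IL-13 knockdown cells measured 6.18, 6.47, 5.31, 5.52 and 5.92 CPM in input and 12.0, 13.3, 10.6, 11.4 and 6.07 CPM in polysome libraries. USP18 had log2 fold changes of 1.53, 0.94, 1.30 and 0.88 in the conditions in that order, and the average was 1.17 ± 0.10 (SE), adjusted p = 5.72e-13. With IL-13 they stayed apart in control cells and overlapped in knockdown cells.

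IFI6 (ENSG00000126709.16) had the highest average. IFI6 in unstimulated control cells measured 86.3, 66.7, 58.1, 72.9 and 70.9 CPM in input and 129.9, 117, 128, 252 and 266 CPM in polysome libraries. IFI6 in unstimulated knockdown cells measured 66.6, 67.5, 71.6, 61.9 and 61.3 CPM in input and 229, 126, 159, 164 and 126 CPM in polysome libraries. Input and polysome libraries were separate in both lines. IFI6 in IL-13 control cells measured 81.9, 39.8, 72.4, 63.7 and 80.1 CPM in input and 181, 244, 152, 104 and 123 CPM in polysome libraries. IFI6 in IL-13 knockdown cells measured 67.8, 59.2, 71.0, 55.3 and 63.8 CPM in input and 124, 96.4, 112, 152 and 163 CPM in polysome libraries. In log2 terms the differences of IFI6 were 1.33, 1.29, 1.25 and 1.03 in the conditions in that order, and the average was 1.22 ± 0.11 (SE), adjusted p = 4.26e-12. With IL-13 the fractions were separate too. With each library left out in turn, the average stayed between 1.17 and 1.36.

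IFI35 (ENSG00000068079.8) rose with more spread. IFI35 in unstimulated control cells measured 46.0, 45.5, 51.4, 79.8 and 53.9 CPM in input and 129, 171, 117, 213 and 118 CPM in polysome libraries. IFI35 in unstimulated knockdown cells measured 65.6, 48.5, 43.6, 47.8 and 51.5 CPM in input and 97.5, 132, 125, 136 and 52.8 CPM in polysome libraries. In knockdown cells 1 shallow library lay within the range of input. IFI35 in IL-13 control cells measured 54.8, 43.1, 90.9, 51.8 and 72.8 CPM in input and 91.5, 240.1, 132, 118 and 143 CPM in polysome libraries. IFI35 in IL-13 knockdown cells measured 78.5, 53.9, 41.8, 50.2 and 48.0 CPM in input and 84.8, 136, 95.4, 132 and 126 CPM in polysome libraries. IFI35 had log2 fold changes of 1.44, 1.09, 1.21 and 1.07 in the conditions in that order, and the average was 1.20 ± 0.12 (SE), adjusted p = 6.50e-11. The fractions were separate in the other 3 conditions.

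EPSTI1 was called higher in all 4 conditions and averaged 1.07 ± 0.12 (SE), adjusted p = 4.73e-10. EPSTI1 in IL-13 knockdown cells measured 17.1, 22.5, 29.6, 24.2 and 16.8 CPM in input and 55.3, 36.4, 63.8, 70.6 and 38.6 CPM in polysome libraries. These IL-13 knockdown groups did not overlap. BST2 (0.71) and ISG15 (0.59) were higher in 3 conditions each, IRF9 in 2 and IRF7 in 1, and UBE2L6 (0.36) and IRF1 (0.33) only on average. TRIM22 in unstimulated control cells measured 10.5, 27.1, 41.2, 26.2 and 32.1 CPM in input and 8.56, 18.3, 16.4, 7.48 and 9.03 CPM in polysome libraries. DTX3L in unstimulated knockdown cells measured 52.7, 46.4, 47.5, 41.0 and 47.7 CPM in input and 22.7, 25.0, 14.9, 23.0 and 31.3 CPM in polysome libraries. TRIM22, a ubiquitin ligase, overlapped slightly between fractions there, and DTX3L did not. In the IFIT family the averages were -1.23 for IFIT2, -1.08 for IFIT3, -1.02 for IFIT1 and -0.70 for IFIT5, of which IFIT3 was called in all 4 conditions and IFIT2 and IFIT5 in none alone. The IFIT genes are similar in sequence, as are HERC5 and HERC6, and shared reads may have been split between them. HERC5, the main ISG15 ligase, averaged -2.86 ± 0.44 (SE) on very few counts, being at 0 in 9 of the 40 libraries, while its relative HERC6 averaged -0.24 and was not called. Members not called on average were HERC6, OAS1, OAS2, OASL, XAF1, EIF2AK2, ISG20 and IFI27.

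Groups that did not overlap between fractions numbered 5 higher and 9 lower members in unstimulated control cells, where 9.84% and 15.6% of all genes were separate in those directions. In unstimulated knockdown cells they numbered 4 and 10 (11.6% and 19.7% of all genes), in IL-13 control cells 4 and 11 (10.6% and 16.2%), and in IL-13 knockdown cells 3 and 11 (12.3% and 21.5%). As shares of the 34 members the lower ones ran from 26.5% to 32.4%. No member's polysome-to-input difference was called to change with the line or with IL-13 (0 of 34 in each of 4 interaction comparisons, by edgeR and by DESeq2, with 1, 0, 0 and 0 at an unadjusted p under 0.05 in edgeR, against 1.69%, 1.79%, 1.95% and 1.31% of all genes). Over all genes these comparisons called 0%, 0.00598%, 0% and 0%. The smallest p-values belonged to USP18, TRIM22 (0.66), IRF7 (-0.54) and SAMD9L (0.84) for the line unstimulated, and to OAS3 (0.83), PARP14 (1.12), BST2 (-0.48) and USP18 with IL-13. For the IL-13 effect in control cells they belonged to STAT2 (-0.94), OAS3 (-0.82), PARP14 (-1.11) and IRF7 (-0.58). In knockdown cells they belonged to OASL (-2.46) and HERC5 (-1.70), both on few counts, ISG15 (-0.39) and TRIM22 (-0.47). Single libraries moved some of these. For the line, IRF7 was -0.35 without unstimulated knockdown polysome replicate 5, and SAMD9L was 0.31 without that library, 0.55 without unstimulated control input replicate 3 and 1.29 without unstimulated control polysome replicate 3. With IL-13, PARP14 was 0.66 without knockdown polysome replicate 1 and BST2 -0.19 without control polysome replicate 2. For the IL-13 effect in control cells, OAS3 was -0.40 without unstimulated polysome replicate 1, PARP14 -0.42 without unstimulated polysome replicate 2 and IRF7 -0.33 without IL-13 polysome replicate 1.

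Transcript length ran through the order of the members. Lengths were those of the principal GENCODE 29 transcript of each gene, whose build need not be that of the study. Across the 34 members, which share their libraries, the Spearman correlation of the average log2 fold change was -0.643 with transcript length and -0.805 with coding length. Over all genes with a length these were -0.25 (16061 genes) and -0.447 (13445 genes). Members with under 1200 nt of coding sequence numbered 12, of which 9 were called higher and 0 lower, with a median of 0.57. Those from 1200 to under 2100 nt numbered 10, with 1 higher and 6 lower and a median of -0.84, and those with 2100 nt or more numbered 12, with 0 higher and 10 lower and a median of -1.85. The shares of all genes called higher in these classes were 47.2%, 29.7% and 5.5%, the shares called lower 24.0%, 30.6% and 70.6%, and their medians 0.34, -0.02 and -1.04. These class limits were chosen after the data were seen.

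The higher members had a median coding length of 892.5 nt, from IFI6 (414 nt) to IRF7 (1548 nt), and the lower ones 2386.5 nt, from IFIT2 (1416 nt) to PARP14 (5403 nt). By name, ISG15 (495 nt), IFI35 (864 nt) and USP18 (1116 nt) were higher, and OAS3 (3261 nt), SAMD9L (4752 nt) and SAMD9 (4767 nt) lower. EIF2AK2 had the longest transcript (10042 nt) with 1653 nt of coding sequence, and its average was -0.07. HERC6 and HERC5 had nearly equal coding lengths, 3066 and 3072 nt, and averages of -0.24 and -2.86. The HERC5 value rests on very few counts, with 0 in 9 of the 40 libraries. Members of like coding length also differed: IFIT1 (1434 nt, -1.02), IFIT5 (1446 nt, -0.70) and TRIM22 (1494 nt, -0.99) were lower, IRF7 (1548 nt, 0.52) was higher, and OASL (1542 nt, 0.46) was not called. Whether length or another property that varies with it sets these values was not tested. Of the 74 pathway genes tested, 27 were called higher and 33 lower between the fractions on average, with a median of -0.15. Over all genes, 26.2% were called higher and 38.9% lower, with a median of -0.24. They included RNF213 (-3.83), a very large ubiquitin ligase, and HELZ2 (-3.12) among the lower and PSMB8 (1.48), an immunoproteasome subunit, among the higher.

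**Figure D5:**
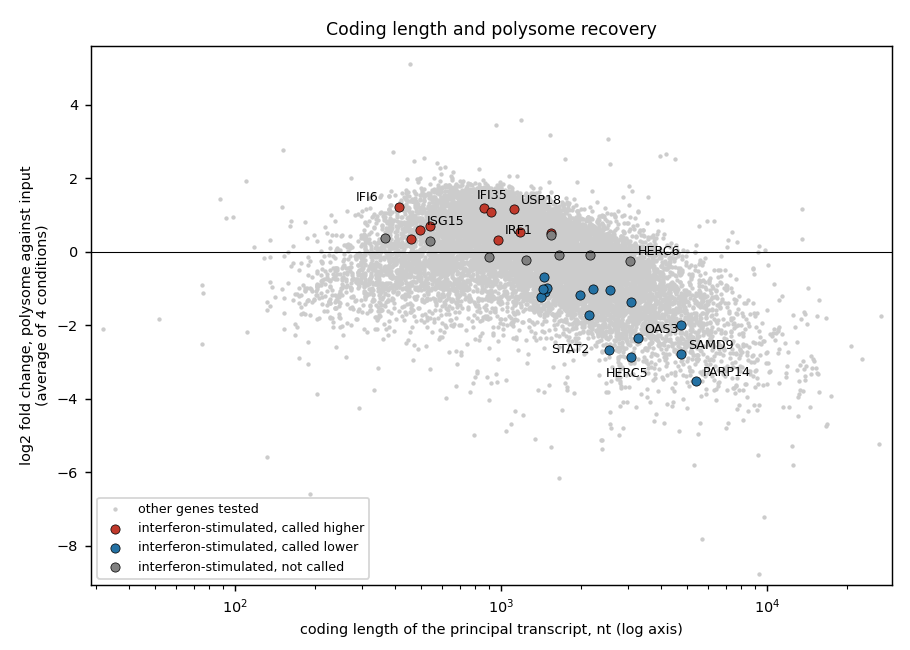
Coding length of the principal transcript (log axis, nt) against the average log2 fold change of polysome against input RNA for all genes with a coding length (grey) and the 34 tested members (red called higher, blue called lower, dark grey not called). Members run from IFI6 at 414 nt and 1.22 to PARP14 at 5403 nt and -3.52, inside the grey cloud.

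Summed over the 34 tested members, the CPM of a group averaged between 871 ± 51.2 (SD, n = 5) in unstimulated knockdown input and 1104 ± 130.9 (SD, n = 5) in unstimulated control polysome libraries. The highest single library was IL-13 control polysome replicate 2 at 1458 CPM, against 893 CPM for the lowest of its group. In input, IL-13 control replicate 3 and unstimulated knockdown replicate 1 each had 23 of 34 members above the median of their group, the most of any library. Unstimulated control replicate 1 held both extremes of its input group, with 15 members highest and 9 lowest of the 5 libraries. Shares over all genes were not computed for these counts, so they are not a result about the members.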

How the data were processed

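RNA-seq libraries from BEAS-2B cells were compared in 8 groups of 5, by fraction, IL-13 and hairpin line. Per the submitters' processing notes, Trimmomatic, Salmon, DESeq2 and MultiQC were used. Their versions, and the genome build and annotation, are not given in the sources used here. The authors deposited 1 table of estimated counts and TPM per gene, in which the TPM of a library sum to 82.33 to 85.87% of the nominal total. The column names speak of siRNA (siC, siIGF2BP3), whereas the growth protocol describes short hairpin lines, which is the wording used here. The protocol names more than 1 library kit, and the sample titles do not say which kit made which library. A part of the kit in the differences between groups was not tested.

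The deposited estimated counts were rounded, since whole counts had been assumed when the tests were planned. edgeR 4.0.16 (R 4.3.3, limma 3.58.1) was run with TMM scaling and its filter on low counts, which kept at least 99.91% of each library's counts. A quasi-likelihood model with 8 group means over all 40 libraries (32 residual degrees of freedom) gave 23 comparisons, with Benjamini-Hochberg adjustment over 16735 genes and a call at an adjusted p under 0.05. CPM use TMM library sizes. Intervals at 95% use 1.96 standard errors. The script was tested on simulated data. DESeq2 1.42.0 was an alternative, beside other scaling, filters, sample subsets, replicate blocks, an offset for transcript length and each library left out in turn.

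Gene symbols came from a table of names (62246 IDs matched, 17 did not). Counts of close paralogs (the IFIT, OAS, MX, HERC and SAMD9 genes) may be shared. The members and lists were chosen with earlier results of these data known. Up to 8 called members were named per comparison by adjusted p, or, where fewer than 4 were called, up to 4 of smallest p with a mean of at least 1 CPM, and up to 4 pathway genes per family of comparisons. Some pathway genes are not reported here by name. The main model did not pair libraries by replicate number. Correlations of deviations between same-numbered libraries ran from -0.526 to 0.477 over 60 pairs within a fraction, 17 of them over 0.1. Over the 20 pairs of input and polysome libraries of a condition they ran from -0.333 to 0.542. Of those, 7 were over 0.1, with 4 of these in unstimulated control cells. The correlations do not settle whether same-numbered input and polysome RNA came from the same culture.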

Additional observations from a re-analysis of the deposited data

Results flagged for a closer look

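In 13 of 200 sets of 5 libraries, 1 library stood apart from the other 4 by Dixon's criterion (critical value 0.71). No library had more than 1 such value. The sets covered the 25 members named in a comparison, which were chosen by p-value in these same libraries. A rate of 1 in 20 would give about 10.0. That rate assumes independent, normal values, which CPM of members in shared libraries need not be, so no conclusion is drawn from the number. In input RNA, STAT2 was low in unstimulated control replicate 1 (41.0 CPM, others 68.3 to 79.2) and high in IL-13 knockdown replicate 2 (85.4 CPM, others 71.6 to 75.1). IFI35 was high in unstimulated control replicate 4 (79.8 CPM, others 45.5 to 53.9), as was SAMD9L in replicate 3 (4.49 CPM, others 1.68 to 2.44). SAMD9 was low in IL-13 knockdown replicate 5 (5.14 CPM, others 9.93 to 10.9), TRIM22 in replicate 1 (22.6 CPM, others 29.0 to 30.1) and OAS2 in replicate 3 (0.602 CPM from 18 counts, others 2.69 to 3.30). In IL-13 control input, OASL was at 0 in replicate 1 (others 0.748 to 1.01 CPM) and XAF1 was high in replicate 3 (4.56 CPM, others 1.09 to 1.70).

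In polysome RNA, OAS3 was high in unstimulated control replicate 1 (56.3 CPM, others 16.2 to 26.2). The other cases rested on few counts. HERC5 in IL-13 control replicate 4 had 0.471 CPM from 16 counts (others 0 to 0.0440), IFIH1 in unstimulated knockdown replicate 2 had 2.19 CPM from 39 counts (others 0.571 to 0.998), and XAF1 in unstimulated knockdown replicate 5 had 3.91 CPM from 8 counts (others 0.499 to 1.01).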

How the results depend on the processing

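The number of members called between fractions moved little, though not always their split by direction. Under the offset for transcript length, the lower members no longer outnumbered the higher ones in unstimulated knockdown cells, as given above. With each library left out in turn, the members called ranged from 18 to 22 in unstimulated control and 13 to 18 in unstimulated knockdown cells. They ranged from 16 to 20 in IL-13 control and 14 to 15 in IL-13 knockdown cells, and from 26 to 27 on average. With a replicate block for the culture these were 21, 15, 18, 15 and 25; in the line and IL-13 comparisons a replicate block moved no count, and USP18 in polysome RNA was -0.87 (adjusted p = 0.000846). DESeq2's Wald test called 1 member between lines in polysome RNA unstimulated, 1 with IL-13 and 2 on average, against 0, 0 and 1 with edgeR. Leaving out single libraries gave 1 to 2 on average, with 2 without IL-13 control polysome replicate 1 (IRF7) or 4 (ISG15). USP18 on average ran from -0.90 to -0.71, with adjusted p from 4.71e-07 to 0.0327, over all alternatives run. XAF1 between lines with IL-13 in input (-0.52) ran from -0.67 to 0.044 with libraries left out, and reversed to 0.044 without IL-13 control input replicate 3; the cause was not tested. The 3 shallow polysome libraries, under 5000000 counts, limit what can be seen of members under 1 TPM.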
